A study of Rattus norvegicus with 9 samples.

Results

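The 9 genes described here are Msln, Upk1b, Upk3b, Krt8, Krt18, Krt19, Wt1, Aldh1a2 and Tbx18, which are used in the heart as genes of the epicardium and its mesothelium or code for keratins of simple epithelia. They were taken by gene symbol from the count table, in which all 9 were found among 28935 genes, and all 9 were among the 14151 genes with enough counts to be tested. Messenger RNA had been sequenced from ventricular myocytes of Sprague Dawley rats aged 1 or 2 days, which were kept for 48 h in medium with 3% fetal bovine serum, infected, and collected after 48 h in serum-free medium. The adenovirus carried Nfya (the DNA-binding subunit of the CCAAT factor NF-Y), Nfe2l1 (a cap'n'collar transcription factor) or GFP as the control, with 3 libraries per virus. All 9 libraries thus came from virus-infected cultures, and no uninfected culture was analysed here. Such cultures are primary isolates, and the non-myocyte cells that they keep are not given by the labels.

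The epicardium is the mesothelial sheet over the heart. During development some of its cells pass through an epithelial to mesenchymal transition and give rise to fibroblasts and mural cells. WT1 and TBX18 are transcription factors of this layer, ALDH1A2 makes the retinoic acid that it secretes, and mesothelin and the uroplakins are surface proteins of mesothelium and other lining epithelia. Keratins 8, 18 and 19 build the intermediate filaments of simple epithelia: the type II keratin 8 pairs with a type I partner, keratin 18 or 19, and unpaired keratin protein is known to be degraded.

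Libraries held between 5712123 and 7310774 counts. The targeted transcripts did not mark the groups. Nfya averaged 89.0 ± 0.683 CPM (counts scaled to library size) in Nfya-labelled, 92.3 ± 2.20 CPM in Nfe2l1-labelled and 80.4 ± 2.19 CPM in GFP libraries (SD, n = 3 each). Nfe2l1 averaged 222.7 ± 4.79 CPM in Nfya-labelled, 239.4 ± 6.14 CPM in Nfe2l1-labelled and 240.7 ± 6.09 CPM in GFP libraries. The groups are therefore named by their labels, and each direction rests on them. The labels do not give the species of the inserts, and whether reads of the inserts were counted was not tested. The 3 Nfya-labelled libraries differed from each other by no more than sampling noise (chi-square per degree of freedom 0.980, 1.01 and 0.999 for the 3 pairs), whereas the ratio was 1.07 to 1.65 within GFP and 1.12 to 1.53 within the Nfe2l1-labelled group. The labels do not say whether replicates came from separate cultures, so p-values reflect the variation among these libraries alone, and that variation may be technical. Fits were repeated with the Nfya-labelled libraries summed and counted as 1 sample, and no call on the 9 genes changed. In those fits the variation comes from the GFP and Nfe2l1-labelled libraries, and the summed sample is assumed to vary like them. Myocyte markers were abundant in every group, with Tnnt2 (cardiac troponin T) at a mean of 225.8 RPKM (reads scaled to gene length and library size) in Nfya-labelled, 215.5 RPKM in Nfe2l1-labelled and 224.7 RPKM in GFP libraries.

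The first question is what changes with the Nfya virus. Relative to GFP, in the libraries labelled Nfya, 7 of the 9 genes rose and 2 fell (edgeR quasi-likelihood test, Benjamini-Hochberg adjusted p below 0.05 over all 14151 genes). Msln, Upk1b, Upk3b, Krt19, Wt1, Tbx18 and Krt8 rose, and Krt18 and Aldh1a2 fell. The second comparison asks this of the Nfe2l1 virus, and there the same 7 genes rose and the same 2 fell. Of these genes, Krt19 had enough counts to be tested only with the Nfe2l1-labelled libraries included. Calls were common in these data: 52.2% of all genes were called in Nfya-labelled libraries (24.3% higher and 27.9% lower) and 58.6% in Nfe2l1-labelled libraries (28.9% higher and 29.7% lower). The median log2 fold change of the 9 genes was 0.60 for Nfya and 1.18 for Nfe2l1, beside -0.02 and -0.01 over all genes tested. The 9 genes were chosen with earlier results of these data known, so these medians are a description and no test of the group. Both comparisons use the same GFP libraries, so they are not independent of each other. The libraries of the groups compared did not overlap for any of the 9 genes in either comparison, which was also so for 61.6% and 64.0% of all genes. Because the libraries are bulk RNA, fewer cells of a type and less RNA per cell cannot be told apart.

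**Figure D1:**
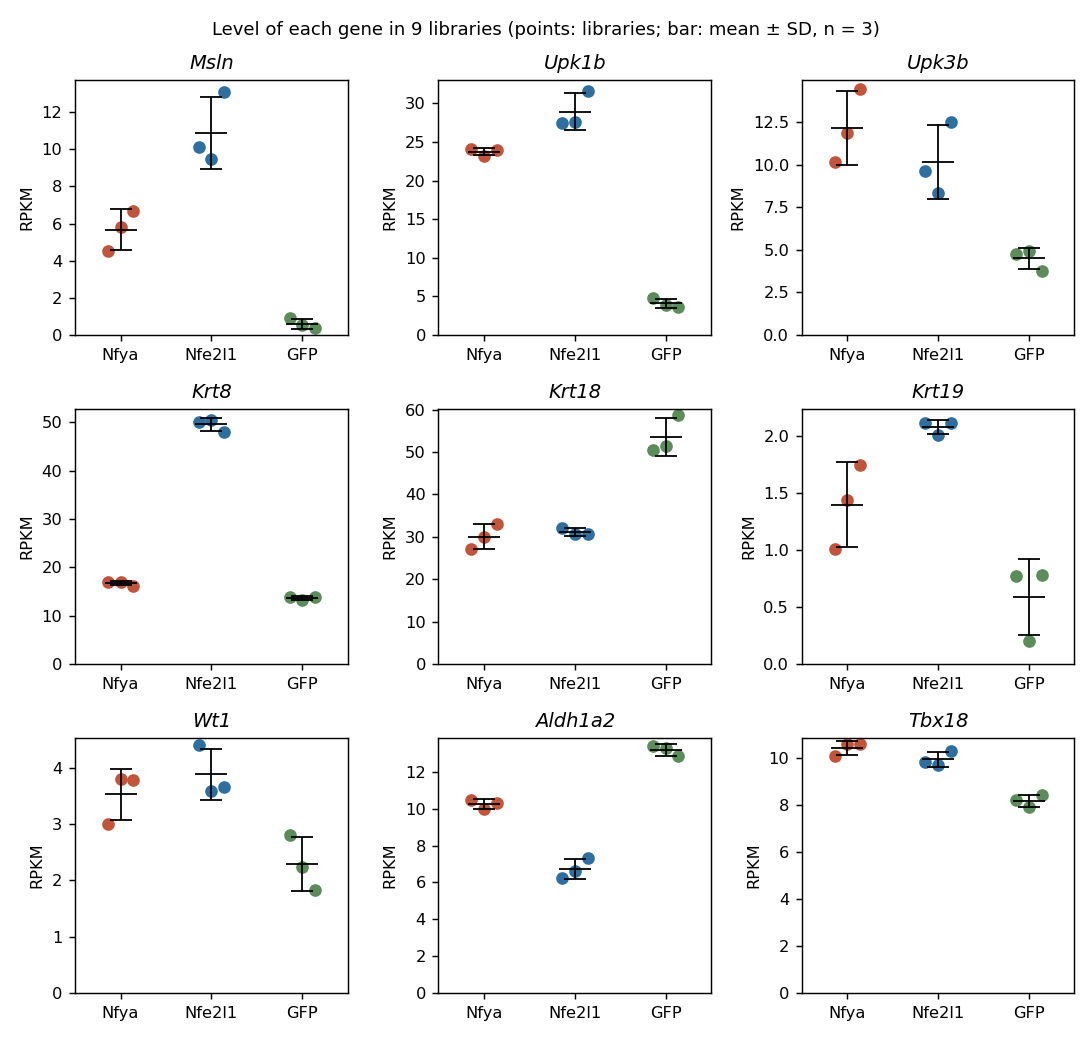
RPKM of each of the 9 genes in every library, by virus, with the mean and SD of 3 libraries as a bar. Points of the Nfya-labelled and Nfe2l1-labelled libraries lie above those of GFP in 7 panels and below them in the panels of Krt18 and Aldh1a2.

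Of the 9 genes, the surface genes Msln and Upk1b had the largest log2 fold changes against GFP for both factors. Msln codes for mesothelin, a lipid-anchored glycoprotein of mesothelial cells. It stood at 4.53, 5.82 and 6.68 RPKM in Nfya-labelled libraries, 10.1, 9.48 and 13.1 RPKM in Nfe2l1-labelled libraries, and 0.910, 0.524 and 0.385 RPKM in GFP libraries. The 3 groups did not overlap. Behind these levels lay 244 summed counts for Nfya, 484 for Nfe2l1 and 25 for GFP. Msln rose by 3.20 ± 0.29 on the log2 scale (SE; adjusted p = 1.33e-07, edgeR) in Nfya-labelled libraries, a count ratio of 9.33 (95% exact interval 6.17 to 14.7). In Nfe2l1-labelled libraries it rose by 4.16 ± 0.25 (adjusted p = 8.02e-10), a ratio of 18.2 (12.2 to 28.4). Intervals cover counting error only, since PCR copies cannot be told from separate molecules here.

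Upk1b codes for uroplakin 1B, a tetraspanin known from the urothelium and the mesothelium. It stood at 24.0, 23.2 and 23.9 RPKM in Nfya-labelled libraries, 27.4, 27.6 and 31.6 RPKM in Nfe2l1-labelled libraries and 4.79, 3.88 and 3.69 RPKM in GFP libraries. No library of either factor came near the GFP range. Upk1b rose 5.69-fold in Nfya-labelled libraries (log2 fold change 2.51 ± 0.10, adjusted p = 9.52e-12, edgeR) and 7.03-fold in Nfe2l1-labelled libraries (2.81 ± 0.09, adjusted p = 1.08e-12). Upk3b codes for uroplakin 3B, a transmembrane member of the family with mesothelial expression. It stood at 10.1, 11.8 and 14.4 RPKM in Nfya-labelled libraries, 9.60, 8.32 and 12.5 RPKM in Nfe2l1-labelled libraries and 4.76, 4.95 and 3.77 RPKM in GFP libraries. The 2 factor groups overlapped each other and lay above GFP. The rise was 2.66-fold for Nfya (1.41 ± 0.19, adjusted p = 1.07e-05, edgeR) and 2.26-fold for Nfe2l1 (1.18 ± 0.19, adjusted p = 6.90e-05).

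NF-Y binds the letters CCAAT, and cap'n'collar factors with small Maf proteins bind the antioxidant response element TGACNNNGC, so both were searched on both strands in the RefSeq promoter windows of the GRCr8 build (250 bases before to 50 after a gene's start). A window was found for 7 of the 9 genes, all but Msln and Krt19. CCAAT occurred in 4 of the 7, Upk1b, Krt18, Aldh1a2 and Tbx18, and in 37.5% of all 33469 windows. TGACNNNGC occurred in 2 of the 7, Upk1b and Aldh1a2, and in 12.1% of all windows. No match overlapped another. The windows of 4 genes are shown, with the matches in capitals, because Upk1b and Aldh1a2 moved in opposite directions and hold both motifs, while the keratin partners Krt8 and Krt18 differ in CCAAT. They lie at chr11:75459131-75459430, plus strand (Upk1b), chr8:80758391-80758690, plus strand (Aldh1a2), chr7:135010290-135010589, minus strand (Krt8) and chr7:135035918-135036217, plus strand (Krt18), and are written 5′ to 3′ on the gene's strand. Upk1b has CCAAT from 78 bases before its start, and Aldh1a2 from 85 bases before it. In Tbx18, not shown, the reverse complement ATTGG lies 84 bases before the start, and in Krt18 the match begins at the start itself. A match of letters is a description and was not tested for binding.
Upk1b: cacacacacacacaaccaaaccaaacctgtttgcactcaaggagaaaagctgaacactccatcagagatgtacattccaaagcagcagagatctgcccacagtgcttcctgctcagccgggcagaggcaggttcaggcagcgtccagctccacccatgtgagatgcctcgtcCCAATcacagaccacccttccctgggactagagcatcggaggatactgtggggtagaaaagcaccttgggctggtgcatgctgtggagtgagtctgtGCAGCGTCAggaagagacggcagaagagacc
Aldh1a2: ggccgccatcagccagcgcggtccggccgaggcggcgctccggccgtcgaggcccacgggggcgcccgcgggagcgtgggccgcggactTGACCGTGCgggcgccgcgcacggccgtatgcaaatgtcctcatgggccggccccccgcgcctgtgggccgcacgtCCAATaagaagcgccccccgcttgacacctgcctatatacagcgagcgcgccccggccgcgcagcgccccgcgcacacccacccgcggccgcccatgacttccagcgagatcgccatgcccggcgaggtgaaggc
Krt8: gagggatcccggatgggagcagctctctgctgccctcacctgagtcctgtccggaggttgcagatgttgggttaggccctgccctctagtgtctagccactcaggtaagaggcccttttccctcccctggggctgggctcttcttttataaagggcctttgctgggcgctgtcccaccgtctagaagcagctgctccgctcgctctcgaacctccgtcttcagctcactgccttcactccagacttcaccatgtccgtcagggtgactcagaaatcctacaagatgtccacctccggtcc
Krt18: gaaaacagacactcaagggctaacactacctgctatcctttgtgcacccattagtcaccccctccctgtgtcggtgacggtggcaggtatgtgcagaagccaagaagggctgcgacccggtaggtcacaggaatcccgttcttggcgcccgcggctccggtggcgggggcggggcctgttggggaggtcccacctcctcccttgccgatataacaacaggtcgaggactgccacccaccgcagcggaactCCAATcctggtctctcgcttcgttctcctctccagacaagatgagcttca

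The keratin genes split. Krt8, the type II keratin, stood at 16.9, 16.9 and 16.2 RPKM in Nfya-labelled libraries, 50.1, 50.5 and 48.0 RPKM in Nfe2l1-labelled libraries and 13.9, 13.2 and 13.9 RPKM in GFP libraries. The Nfe2l1-labelled libraries were far above both other groups, and the Nfya-labelled libraries lay just above GFP. Krt8 rose 3.63-fold in Nfe2l1-labelled libraries (log2 fold change 1.86 ± 0.05, adjusted p = 1.37e-13, edgeR) and 1.21-fold in Nfya-labelled libraries (0.27 ± 0.06, adjusted p = 0.00366). Krt18, its main type I partner, stood at 27.1, 29.8 and 33.0 RPKM in Nfya-labelled libraries, 32.1, 30.6 and 30.6 RPKM in Nfe2l1-labelled libraries and 50.5, 51.5 and 58.6 RPKM in GFP libraries. The 2 factor groups overlapped and lay below every GFP library. Krt18 fell by 0.84 ± 0.07 on the log2 scale in Nfya-labelled libraries (adjusted p = 5.88e-08, edgeR) and by 0.78 ± 0.07 in Nfe2l1-labelled libraries (adjusted p = 9.80e-08).

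Krt19 codes for the small type I keratin of ductal and mesothelial cells, which lacks the usual tail domain. It was sparse, with 9, 13 and 16 counts in Nfya-labelled libraries, 19, 18 and 21 counts in Nfe2l1-labelled libraries and 7, 2 and 6 counts in GFP libraries. The groups did not overlap, but the Nfya-labelled and GFP ranges were separated by only a few counts. Krt19 passed the filter of 3 libraries over 1.53 CPM through the Nfe2l1-labelled libraries, since 2 Nfya-labelled and 0 GFP libraries lay over it. It rose in Nfe2l1-labelled libraries by 1.84 ± 0.37 on the log2 scale (adjusted p = 4.35e-04, and 8.99e-05 with no filter, edgeR), a count ratio of 3.64 (exact interval 2.03 to 6.91). In Nfya-labelled libraries it rose by 1.25 ± 0.40 (adjusted p = 0.0147), a ratio of 2.42 (1.30 to 4.74). This call was lost with DESeq2 (adjusted p = 0.0758), without GFP replicate 2 (0.0933) and without Nfya replicate 3 (0.0701), and its 17 alternatives gave an adjusted p of 0.0118 to 0.0933.

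The balance of Krt8 to its partners Krt18 and Krt19 differed between the 3 groups. Krt8 over the sum of Krt18 and Krt19, as a ratio of RPKM within each library, was 0.604, 0.542 and 0.465 in Nfya-labelled libraries, 1.46, 1.55 and 1.47 in Nfe2l1-labelled libraries and 0.271, 0.256 and 0.234 in GFP libraries. Krt8 thus exceeded the sum of Krt18 and Krt19 in every Nfe2l1-labelled library and in no other library. Krt18 made up 95.6 ± 0.739% of the summed Krt18 and Krt19 RPKM in Nfya-labelled libraries, 93.7 ± 0.178% in Nfe2l1-labelled libraries and 98.9 ± 0.597% in GFP libraries (SD, n = 3 each), so Krt19 was the minor of the pair. Other type I keratin genes, among them Krt10 and Krt23, are not part of these ratios. Krt8 and Krt18 are neighbours in the GRCr8 gene table, with 0 protein-coding genes between them. The same table lists 6 pseudogenes named for Krt18 and 1 named for Krt8, and how reads shared with such copies were counted is not given in the sources used here, so the counts of both genes carry that uncertainty.

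**Figure D2:**
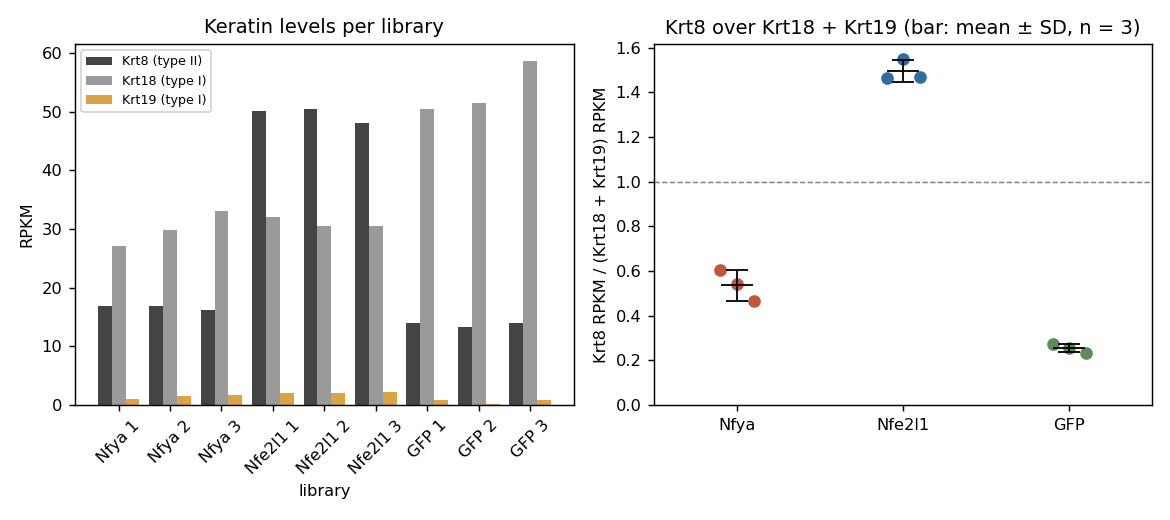
Left, RPKM of Krt8, Krt18 and Krt19 in each library as bars. Right, the RPKM ratio of Krt8 to Krt18 plus Krt19 per library, with the mean and SD of 3 libraries and a dashed line at equal RPKM, which the Nfe2l1-labelled libraries alone exceed, at 1.46 to 1.55.

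The genes of the epicardial regulators Wt1 and Tbx18 rose by smaller factors than the surface genes. Wt1, the Wilms tumour zinc finger factor, stood at 3.01, 3.80 and 3.79 RPKM in Nfya-labelled libraries, 4.41, 3.59 and 3.66 RPKM in Nfe2l1-labelled libraries and 2.80, 2.25 and 1.84 RPKM in GFP libraries. The lowest Nfya-labelled and the highest GFP library lay close together. Wt1 rose 1.51-fold for Nfya (log2 fold change 0.60 ± 0.18, adjusted p = 0.00959, edgeR) and 1.69-fold for Nfe2l1 (0.75 ± 0.17, adjusted p = 0.00139). Tbx18, a T-box repressor of the epicardium and the sinus horn, stood at 10.1, 10.6 and 10.6 RPKM in Nfya-labelled libraries, 9.83, 9.68 and 10.3 RPKM in Nfe2l1-labelled libraries and 8.20, 7.91 and 8.41 RPKM in GFP libraries. Its rise was small but larger than the spread of the libraries, at 1.26-fold for Nfya (0.34 ± 0.05, adjusted p = 4.00e-05, edgeR) and 1.22-fold for Nfe2l1 (0.29 ± 0.05, adjusted p = 1.76e-04).

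Aldh1a2, the retinaldehyde dehydrogenase that makes most embryonic retinoic acid, moved the other way. It stood at 10.5, 9.97 and 10.3 RPKM in Nfya-labelled libraries, 6.22, 6.64 and 7.33 RPKM in Nfe2l1-labelled libraries and 13.4, 13.3 and 12.8 RPKM in GFP libraries. The 3 groups did not overlap. Aldh1a2 fell by 0.38 ± 0.07 on the log2 scale in Nfya-labelled libraries (adjusted p = 2.43e-04, edgeR) and by 0.96 ± 0.08 in Nfe2l1-labelled libraries (adjusted p = 2.37e-08).

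Set directly against each other, Nfya-labelled and Nfe2l1-labelled libraries differed in 4 of the 9 genes, beside 50.6% of all genes called (25.2% higher and 25.4% lower). Aldh1a2 was higher in Nfya-labelled libraries (log2 fold change 0.58 ± 0.08, adjusted p = 1.62e-05, edgeR). Krt8 (-1.59 ± 0.05, adjusted p = 6.08e-13), Msln (-0.96 ± 0.15, adjusted p = 6.13e-05) and Upk1b (-0.31 ± 0.06, adjusted p = 4.74e-04) were lower there. The other 5 were not called, and their count ratios with exact 95% intervals were 1.17 (0.986 to 1.40) for Upk3b, 1.03 (0.944 to 1.13) for Tbx18, 0.953 (0.865 to 1.05) for Krt18, 0.898 (0.732 to 1.10) for Wt1 and 0.666 (0.431 to 1.02) for Krt19. Each interval includes equal levels, and differences up to its bounds were not excluded. For 5 of the 9 genes the ranges of the 2 groups were apart, against 60.0% of all genes. Upk3b was called higher in Nfya-labelled libraries when Nfe2l1 replicate 3 was left out (adjusted p = 0.0386), while the 19 alternatives gave it an adjusted p of 0.0386 to 0.699.

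**Figure D3:**
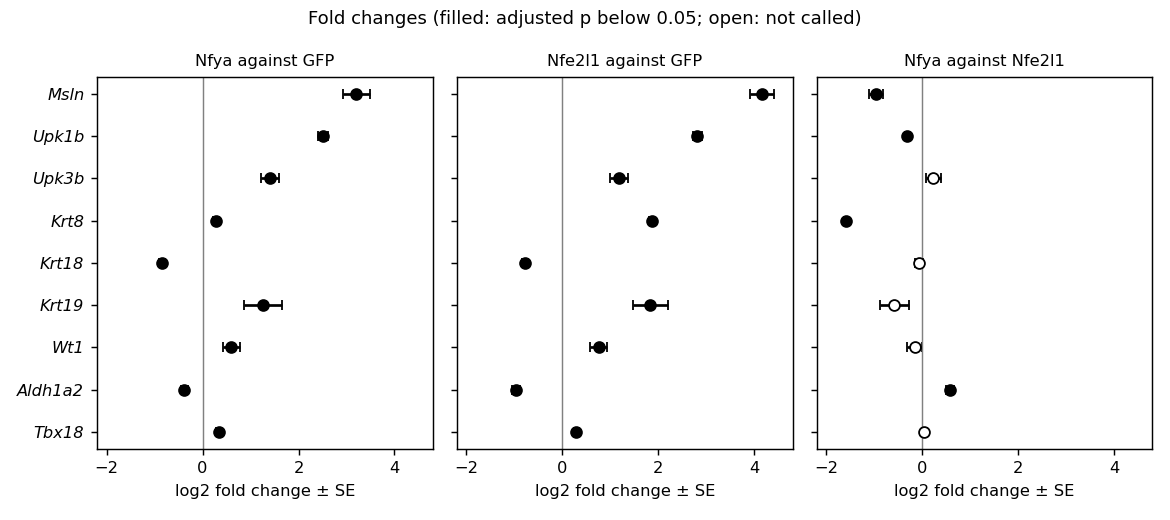
Log2 fold changes of the 9 genes with their SE, which can be smaller than the counting error, in the 3 comparisons. Filled points passed adjusted p below 0.05 and open points did not. All 9 points are filled against GFP, and 5 are open for Nfya against Nfe2l1.

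The order of levels also differed by group, as seen in length-scaled RPKM. In Nfya-labelled libraries the order was Krt18 (30.0 ± 2.99), Upk1b (23.7 ± 0.442), Krt8 (16.7 ± 0.446), Upk3b (12.1 ± 2.17), Tbx18 (10.4 ± 0.294), Aldh1a2 (10.3 ± 0.259), Msln (5.68 ± 1.08), Wt1 (3.53 ± 0.454) and Krt19 (1.40 ± 0.372), all as mean RPKM ± SD with n = 3. Libraries overlapped between Upk3b and Tbx18 and between Tbx18 and Aldh1a2. In Nfe2l1-labelled libraries Krt8 led at 49.6 ± 1.34 RPKM, followed by Krt18, Upk1b, Msln, Upk3b, Tbx18, Aldh1a2, Wt1 and Krt19 at 2.08 ± 0.0640 RPKM. There the neighbours Krt18 and Upk1b, Msln and Upk3b, and Upk3b and Tbx18 overlapped. In GFP libraries Krt18 led at 53.5 ± 4.43 RPKM, followed by Krt8, Aldh1a2, Tbx18, Upk3b, Upk1b, Wt1, Msln and Krt19 at 0.587 ± 0.332 RPKM. The overlapping neighbours in GFP were Krt8 and Aldh1a2, Upk3b and Upk1b, and Msln and Krt19.

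Other mesothelial genes moved in both directions. Of 10 tested mesothelial surface and secreted genes, 5 rose and 3 fell in Nfya-labelled libraries (median log2 fold change 0.89), and 5 rose and 4 fell in Nfe2l1-labelled libraries (median 0.68). Slpi, counted as risen in both, passed the filter only with the Nfya-labelled and Nfe2l1-labelled libraries together. Efemp1, which codes for a fibulin, averaged 82.9 CPM in Nfya-labelled, 103.3 CPM in Nfe2l1-labelled and 31.0 CPM in GFP libraries (log2 fold change 1.42 ± 0.09 for Nfya and 1.73 ± 0.08 for Nfe2l1, adjusted p = 2.19e-09 and 8.66e-11, edgeR). The cortisone reductase gene Hsd11b1 rose by 2.30 ± 0.10 for Nfya and 1.78 ± 0.11 for Nfe2l1. The membrane glycoprotein gene Gpm6a fell by 0.80 ± 0.04 for Nfya and by 0.72 ± 0.04 for Nfe2l1. The summed level of the 10 genes overlapped between the factor groups, at 277.5 to 282.8 CPM in Nfya-labelled and 275.4 to 297.5 CPM in Nfe2l1-labelled libraries, and was 263.9 to 271.4 CPM in GFP. The levels of the list ranged widely: Pdpn, which codes for podoplanin, had 1583 summed counts for Nfya, 1565 for Nfe2l1 and 1953 for GFP, while Calb2 (calretinin) had 9 for Nfya, 8 for Nfe2l1 and 3 for GFP. Bnc1, which codes for the zinc finger protein basonuclin, had 1, 5 and 2 counts in Nfya-labelled libraries, 46, 34 and 0 in Nfe2l1-labelled libraries and 0 in every GFP library, and did not pass the filter, which asks for 3 libraries over 1.53 CPM.

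Of 10 further epicardial regulators, 5 rose and 2 fell for Nfya (median 0.10), and 4 rose and 3 fell for Nfe2l1 (median -0.11). Tcf21, a helix-loop-helix factor of epicardium and fibroblasts, rose by 2.41 ± 0.14 for Nfya and 1.70 ± 0.15 for Nfe2l1, and was higher in Nfya-labelled than in Nfe2l1-labelled libraries (0.71 ± 0.11, adjusted p = 4.13e-05, edgeR). Sema3d, a semaphorin of the epicardial lineage, rose by 1.32 ± 0.05 for Nfya and 0.82 ± 0.05 for Nfe2l1. The tendon and epicardial factor gene Scx fell by 0.94 ± 0.10 for Nfya and by 1.12 ± 0.10 for Nfe2l1. The integrin gene Itga4 rose by 1.73 ± 0.07 for Nfya, and for Nfe2l1 it fell by 0.36 ± 0.09. Among 7 tested T-box genes other than Tbx18, 1 rose and 5 fell for Nfya, and 1 rose and 6 fell for Nfe2l1 (medians -0.34 and -0.31). The count that rose for Nfya was 0 to 2 when 1 library was left out, namely 0 without GFP replicate 1 or 2 or Nfya replicate 1 or 3, and 2 without Nfe2l1 replicate 1 or 3. Tbx5, a cardiac chamber factor gene, fell by 0.29 ± 0.05 for Nfya and by 0.31 ± 0.05 for Nfe2l1. Tbx3, a factor gene of the conduction system, fell by 0.87 ± 0.16 for Nfya and by 0.92 ± 0.16 for Nfe2l1, and Tbx19, known from the pituitary, fell by 1.53 ± 0.22 for Nfya and by 0.99 ± 0.20 for Nfe2l1. Mga, whose large protein joins a T-box to a MAX-binding domain, fell by 0.34 ± 0.03 for Nfya and by 0.17 ± 0.03 for Nfe2l1. Eomes, a gene of early mesoderm and lymphocytes, had 2, 0 and 1 counts in Nfya-labelled libraries, 3, 4 and 5 in Nfe2l1-labelled libraries and 31, 22 and 17 in GFP libraries, and passed the filter through GFP alone.

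Of the 4 other uroplakin genes only Upk1a, which codes for a tetraspanin like uroplakin 1B, passed the filter. It had 4, 4 and 3 counts in Nfya-labelled libraries, 30, 30 and 45 counts in Nfe2l1-labelled libraries and 3, 4 and 4 counts in GFP libraries. The Nfe2l1-labelled libraries were higher than all others, but the gene passed the filter through that group alone, so its counts are given as a description. Among the other keratin genes 5 of 22 in the count table could be tested. Of these 5, 3 rose and 0 fell for Nfya (Krt23, Krt80 and Krt7; median 1.82), and 5 rose and 0 fell for Nfe2l1 (median 1.44). Krt79, with 12 summed counts for Nfya, 55 for Nfe2l1 and 3 for GFP, is 1 of these 5 and passed the filter through the Nfe2l1-labelled libraries alone. Its place among the genes that rose for Nfe2l1 is therefore a description. The median given for Nfya is the value of Krt79 itself, which was not called there (1.82 ± 0.84, adjusted p = 0.0831, edgeR). Without Nfe2l1 replicate 1 or without Nfya replicate 3, 5 of the keratin genes then tested rose for Nfya. Krt23, a type I keratin gene, averaged 18.4 CPM in Nfya-labelled, 10.7 CPM in Nfe2l1-labelled and 4.69 CPM in GFP libraries (log2 fold change 1.98 ± 0.13 for Nfya and 1.20 ± 0.15 for Nfe2l1). Krt80 averaged 13.5 CPM in Nfya-labelled, 12.9 CPM in Nfe2l1-labelled and 3.75 CPM in GFP libraries (log2 fold change 1.86 ± 0.18 for Nfya and 1.80 ± 0.18 for Nfe2l1).

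Other filament genes showed no common direction. Of 13 non-keratin intermediate filament genes, 3 rose and 6 fell for Nfya, and 3 rose and 5 fell for Nfe2l1 (medians -0.04 and -0.15). Synm, the muscle filament gene synemin, fell by 0.34 ± 0.03 for Nfya and by 0.61 ± 0.03 for Nfe2l1, while Prph, which codes for peripherin, rose by 1.00 ± 0.18 for Nfya and 1.88 ± 0.16 for Nfe2l1. Of 13 desmosome and keratin linker genes, 4 rose and 6 fell for Nfya, and 5 rose and 6 fell for Nfe2l1 (medians -0.02 and -0.12). The 6 that fell for Nfya were 2 without GFP replicate 1 or Nfe2l1 replicate 3, and 3 without Nfe2l1 replicate 1. The desmocollin gene Dsc3 rose by 2.10 ± 0.10 for Nfya and 1.89 ± 0.10 for Nfe2l1, and Jup (plakoglobin) fell by 0.36 ± 0.04 for Nfya and by 0.38 ± 0.04 for Nfe2l1. Of 17 epithelial junction and identity genes, 7 rose and 6 fell for Nfya, and 6 rose and 6 fell for Nfe2l1 (medians 0.01 and -0.08). The gene Cldn3, counted as risen for both, passed the filter only with the Nfya-labelled libraries. Cgn, which codes for the tight junction protein cingulin, fell by 1.67 ± 0.05 for Nfya and by 1.47 ± 0.04 for Nfe2l1. The epithelial cadherin gene Cdh1 was not called, at -0.01 ± 0.27 for Nfya and -0.18 ± 0.28 for Nfe2l1.

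Around Aldh1a2, 9 of 20 tested genes of retinoic acid synthesis, binding, receptors and breakdown rose and 5 fell for Nfya, and 8 rose and 6 fell for Nfe2l1 (medians 0.19 and 0.16). Rbp4, counted as risen for Nfya, passed the filter only with the Nfya-labelled libraries. The related dehydrogenase gene Aldh1a3 averaged 49.9 CPM in Nfya-labelled, 36.7 CPM in Nfe2l1-labelled and 10.5 CPM in GFP libraries (log2 fold change 2.24 ± 0.09 for Nfya and 1.80 ± 0.10 for Nfe2l1, adjusted p = 1.18e-11 and 2.60e-10, edgeR), the opposite direction to Aldh1a2. The retinol-binding protein gene Rbp2 rose by 2.89 ± 0.18 for Nfya and 2.97 ± 0.18 for Nfe2l1. Rdh10, whose enzyme makes the retinaldehyde that ALDH1A2 uses, fell by 0.85 ± 0.05 for Nfya and by 0.74 ± 0.05 for Nfe2l1. Dhrs3, whose enzyme turns retinaldehyde back to retinol, fell by 0.84 ± 0.08 for Nfya and by 1.26 ± 0.09 for Nfe2l1. Of 14 genes of the epithelial to mesenchymal transition, 10 rose and 0 fell for Nfya (median 0.27), and 7 rose and 3 fell for Nfe2l1 (median 0.08). Snai2, a transition repressor gene, rose by 0.87 ± 0.08 for Nfya and stood at -0.14 ± 0.09 for Nfe2l1 (adjusted p = 0.264), and it differed between the factors (1.01 ± 0.08, adjusted p = 3.40e-08).

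Cell type markers changed alongside the 9 genes, and their part in these results was not tested. Of 10 fibroblast markers 9 rose and 1 fell for Nfya, and 9 rose and 0 fell for Nfe2l1 (medians 1.19 and 0.91). Their summed level was 1969 to 1993 CPM in Nfya-labelled, 1669 to 1792 CPM in Nfe2l1-labelled and 1068 to 1127 CPM in GFP libraries. Postn (periostin) rose by 1.29 ± 0.03 for Nfya and 0.98 ± 0.03 for Nfe2l1, Lum (lumican) rose by 2.25 ± 0.07 for Nfya and 1.34 ± 0.08 for Nfe2l1, and Ddr2, a collagen receptor gene, rose by 1.49 ± 0.05 for Nfya and 1.39 ± 0.05 for Nfe2l1. Of 9 endothelial markers 6 rose and 1 fell for Nfya, and 7 rose and 1 fell for Nfe2l1, with sums of 451.1 to 469.2 CPM in Nfya-labelled, 491.1 to 526.9 CPM in Nfe2l1-labelled and 332.6 to 347.6 CPM in GFP libraries. Tek, an angiopoietin receptor gene, rose by 1.77 ± 0.08 for Nfya and 1.87 ± 0.08 for Nfe2l1, and Eng (endoglin) rose by 1.12 ± 0.04 for Nfya and 1.36 ± 0.04 for Nfe2l1, while Kdr, a receptor gene for vascular endothelial growth factor, fell by 1.08 ± 0.04 for Nfya and by 0.86 ± 0.04 for Nfe2l1. Among 9 mural cell (smooth muscle or pericyte) markers, 7 rose and 1 fell for Nfya, and 3 rose and 3 fell for Nfe2l1, with sums of 1274 to 1293 CPM in Nfya-labelled, 929 to 963 CPM in Nfe2l1-labelled and 1132 to 1140 CPM in GFP libraries. Kcnj8, counted as risen for Nfya, passed the filter only with the Nfya-labelled libraries. Pdgfrb, the platelet-derived growth factor receptor beta gene, rose by 1.45 ± 0.07 for Nfya and 0.81 ± 0.07 for Nfe2l1. Of 7 macrophage and leukocyte markers 5 rose and 2 fell for Nfya, and 4 rose and 1 fell for Nfe2l1, with sums of 84.4 to 99.6 CPM in Nfya-labelled, 96.4 to 108.5 CPM in Nfe2l1-labelled and 62.5 to 81.1 CPM in GFP libraries. C1qa, counted as risen for Nfya, likewise passed only with the Nfya-labelled libraries. Of 5 Schwann and neural markers 2 rose and 2 fell for Nfya, and 3 rose and 2 fell for Nfe2l1, with sums of 50.5 to 59.9 CPM in Nfya-labelled, 74.3 to 78.7 CPM in Nfe2l1-labelled and 48.0 to 51.7 CPM in GFP libraries. Within this sum S100b averaged 7.92 CPM in Nfya-labelled, 21.3 CPM in Nfe2l1-labelled and 3.93 CPM in GFP libraries. Erbb3 went the other way, at 3.73 CPM in Nfya-labelled, 6.36 CPM in Nfe2l1-labelled and 8.61 CPM in GFP libraries. The 1 erythroid marker tested, Slc4a1, was not called against GFP (adjusted p = 0.188 for Nfya and 0.143 for Nfe2l1). Of 11 cardiomyocyte markers 3 rose and 0 fell for Nfya, and 0 rose and 2 fell for Nfe2l1 (medians 0.03 and -0.06), with sums of 3707 to 3766 CPM in Nfya-labelled, 3331 to 3684 CPM in Nfe2l1-labelled and 3462 to 3840 CPM in GFP libraries. Several of these counts depended on 1 library. The 2 cardiomyocyte markers that fell for Nfe2l1 were 0 without Nfe2l1 replicate 3 (1 then rose), 1 without GFP replicate 3 or Nfe2l1 replicate 1 and 4 without Nfe2l1 replicate 2. The 1 fibroblast marker that fell for Nfya was 0 without GFP replicate 2 or 3 or Nfya replicate 1 or 2. The 5 macrophage and leukocyte markers that rose for Nfya were 3 without Nfya replicate 1.

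Genes with the closest pair of fold changes against GFP were listed for each of the 9, out of 11506 genes with a standard symbol and at least 5 CPM in their highest group, by distance in the plane of the 2 log2 fold changes. Nearest to Msln were Cpz (distance 0.343) and Sytl1 (0.526), and Msln thus stood farther from its nearest genes than the other 8 did. Nearest to Upk1b were Kazald1 (0.0544) and Igfbp2 (0.154), to Upk3b Aebp1 (0.0389) and Tm4sf1 (0.0460), and to Krt8 Fam83h (0.0839). Nearest to Krt18 were Zbtb2 (0.00338) and Zfp300 (0.0200), and to Krt19 Cd14 (0.0481) and Hpse (0.0560). Nearest to Wt1 were Slc29a3 (0.0377) and Wdr13 (0.0493), to Aldh1a2 Armcx4 (0.0207) and Sall2 (0.0317), and to Tbx18 Sgms1 (0.00301) and Sel1l (0.00571). The measure rests on 3 groups and shared GFP libraries and describes these data only.

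**Figure D4:**
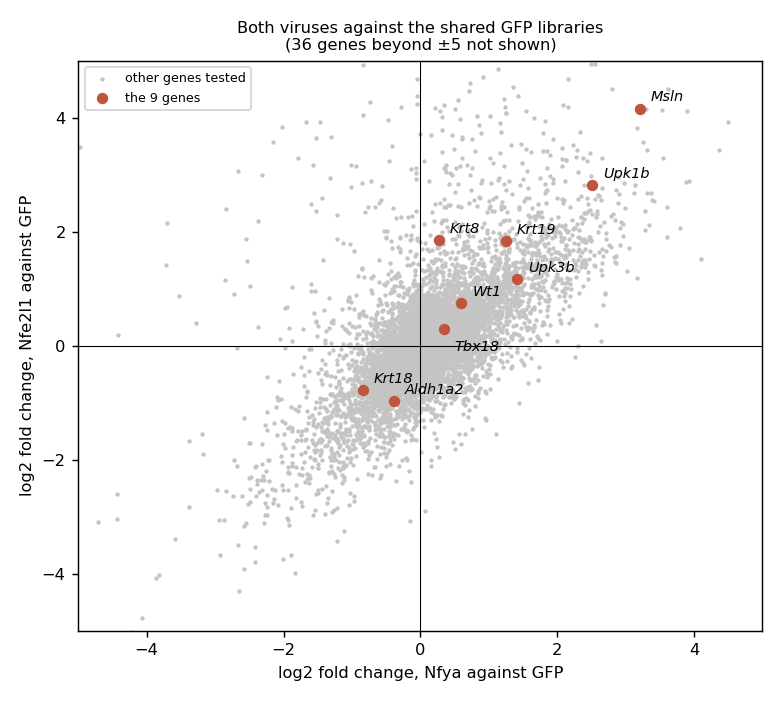
Log2 fold change for Nfe2l1 against GFP (vertical) over that for Nfya against GFP (horizontal), for all genes tested (grey) and the 9 genes (red); 36 genes beyond 5 on either axis are not shown. Msln lies at 3.20 and 4.16, Krt8 at 0.27 and 1.86, and Krt18 and Aldh1a2 lie below 0 on both axes.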

How the data were processed

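Counts per gene symbol were deposited by the authors as whole numbers, without normalization, for 9 libraries. RPKM values with gene lengths were also deposited by the authors, for 14986 genes, and served for levels; a last line without a gene was skipped. The authors also deposited their own edgeR tables, 1 per factor, with log2 fold changes, a likelihood ratio score and p-values; in the authors' deposited tables all 9 genes pass an FDR of 0.05 in both comparisons, in the directions found here. Per the submitters' processing notes, FastQC 0.11.4, featureCounts 1.6.0 and edgeR 3.20.5 were used and the builds rn6, mm10 and GRCm38 are named. For the aligner, strand setting, annotation and duplicate reads, nothing is given in the sources used here. Stranded libraries were made per the labels' protocols.

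Counts were analysed with R 4.3.3 and edgeR 4.0.16: filterByExpr, TMM, and the quasi-likelihood F test fitted once over the 9 libraries, with virus as its single factor. The threshold was a p of 0.05 after Benjamini-Hochberg adjustment over 14151 genes, which held 99.8% of counts. SE is the size of the log2 fold change divided by the root of the F statistic. It can fall short of the counting error, with few counts and also with many, as for Tbx18 (945 summed counts for Nfya, 715 for GFP). SE and adjusted p can then be too small. Count ratios scaled by library size, where given, carry Clopper-Pearson intervals at 95%. For Nfya against GFP these intervals were 1.15 to 1.40 for Tbx18, 1.07 to 1.36 for Krt8 and 0.677 to 0.870 for Aldh1a2. A fold against 0 counts uses a floor of 3 counts over the group. On simulated counts for Nfya against GFP (13951 genes), 94.0% of 1.5-fold, 98.5% of 2-fold and 100% of 4-fold changes were recovered. The changes were set in 67, 67 and 66 genes, all with higher mean counts than Krt19, and every gene was given the same spread. These shares therefore do not cover genes as sparse as Krt19 or libraries that vary more. Nor do they cover a comparison in which many genes change, while 52.2% of genes were called for Nfya against GFP. Depth, 5712123 to 7310774 counts, limits Msln and Krt19 most.

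The 9 genes and all lists (10 functional, 7 cell type, of which 8 genes, among them Muc16, Pkp2, Ttn and Pecam1, were not analysed here) were chosen with earlier results of these data known. Named are the 9 genes, genes among the 3 per functional list (2 per cell type list) with the smallest p in each virus comparison, and the 2 nearest genes to each of the 9, of which 1 is not reported here; Bnc1, Calb2, Pdpn, Krt10, Cdh1 and Tnnt2 were named after their values were seen. Of 162 list genes tested, 11 did not pass the filter when the libraries of a given group were left out. Those of the 11 that were called against GFP are named with their lists, and Slpi, Cldn3, Rbp4, Kcnj8 and C1qa are named for this reason alone. Promoter windows came from RefSeq (GRCr8), matched by symbol; the build behind the counts is named without a role, so no other coordinates are given. Alternatives were other scalings, filters, DESeq2 1.42.0, thresholds, a replicate block, fewer libraries, and a summed Nfya sample, the last added after the data were seen.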

Additional observations from a re-analysis of the deposited data

How the results depend on the processing

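No log2 fold change of the 9 genes changed sign under an alternative, and all 120 recomputed levels moved by less than 1 SD. Of the fold changes recomputed, 498 kept their direction and side of the threshold, 10 were no longer called and 1 was newly called. Krt19 in Nfya-labelled libraries against GFP was not called by DESeq2 (log2 fold change 1.28, adjusted p = 0.0758) or at an adjusted p below 0.01 (1.25). Without 1 library it ran from 0.86 to 1.57, and it could not be tested with at least 5 mean CPM or with only the 6 libraries compared. At least 1.5-fold was not reached by Krt8 (0.27), Aldh1a2 (-0.38) and Tbx18 (0.34) for Nfya against GFP, by Tbx18 (0.29) for Nfe2l1 against GFP, or by Upk1b (-0.31) and Aldh1a2 (0.58) for Nfya against Nfe2l1. Of the 9 genes, 1 was then lower for Nfya against GFP and 0 were higher for Nfya against Nfe2l1. Without 1 library, 1 to 2 were higher for Nfya against Nfe2l1, where Upk3b ran from 0.091 to 0.43. Over all genes, at least 1.5-fold left 1555 higher and 945 lower for Nfya against GFP, 1674 and 1405 for Nfe2l1 against GFP, and 1169 and 927 for Nfya against Nfe2l1, while edgeR without that minimum called 3433 and 3953, 4095 and 4202, and 3561 and 3597. DESeq2 called 2486 lower for Nfya against GFP and 2392 lower for Nfya against Nfe2l1. The cause of these differences was not tested, except that a fold minimum takes away small changes by construction. Of the counts over functional and cell type lists, 215 moved by over 1.5 times, 77 of them without 1 library, and 1723 did not. Of the 68 counts against GFP, 13 moved so without 1 library: besides those given with the results, the lower counts ran from 1 to 2 for Schwann and neural markers (both viruses), macrophage and leukocyte markers (Nfya) and endothelial markers (Nfya), and from 0 to 1 for transition regulators (Nfya) and fibroblast markers (Nfe2l1). With the replicate number as a block, edgeR called 7 of the 9 genes higher and 2 lower for each virus against GFP. For Nfya against Nfe2l1 it called 1 higher and 3 lower. Deviations of same-numbered libraries correlated at -0.0655 to 0.0485, beside -0.0665 to 0.0604 for differently numbered libraries. Whether same-numbered libraries came from a shared culture was not tested. Low counts limit Krt19 and Msln in GFP most.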

Other observations

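Summed counts of epithelial genes that did not pass the filter lay above or below those of GFP, and the genes named here were picked after their values were seen. Krt16, a type I keratin gene of stratified and wounded epithelium, had 0 counts in every Nfya-labelled library, 8, 8 and 15 counts in Nfe2l1-labelled libraries and 0 in every GFP library. Against a floor of 3 counts over the GFP group, its level in the Nfe2l1-labelled group was 9.70-fold higher, a value that leaves out the counting error of the Nfe2l1-labelled group. Krt14, the type I keratin gene of basal epithelial cells, had 4, 5 and 5 counts in Nfya-labelled libraries, 8, 10 and 14 in Nfe2l1-labelled libraries and 0, 0 and 2 in GFP libraries. Dsg1, which codes for a desmosomal cadherin, had 2, 5 and 2 counts in Nfya-labelled libraries, 14, 12 and 8 in Nfe2l1-labelled libraries and 3, 2 and 2 in GFP libraries. In the other direction, Elf3, an epithelial ETS factor gene, had 3 summed counts for Nfya, 0 for Nfe2l1 and 14 for GFP. Krt17 had 9 summed counts for Nfya, 8 for Nfe2l1 and 12 for GFP, and Krt20 had 3 for Nfya, 2 for Nfe2l1 and 6 for GFP. For Krt17 and Krt20 the libraries of the groups overlapped, so these few counts do not show a difference. None of these differences was tested.

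Bnc1 had 0 counts in Nfe2l1 replicate 3 beside 46 and 34 in the other Nfe2l1-labelled libraries. Genes at 0 in 1 library of a group with at least 20 counts in each of its other libraries numbered 2 in that library and 0 to 2 in the other libraries.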
